A study of Mus musculus with 28 samples.

Results

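The genes described here are 9 genes of the complement system, measured in RNA from cells sorted from mouse brain. C1ra, C1s1, C4b and C2 belong to the classical pathway, C3 is the central component, Cfb belongs to the alternative pathway, and Serping1, Cd55 and Cd59a are regulators. They were listed by name, and all 9 were found among the 53647 gene IDs of the count table. All 9 also passed the filter on low counts in the edgeR fits reported as the main results. The study holds 28 libraries of 6 groups. Endothelial cells (sorted as CD31+) gave 5 libraries from breast brain metastases, 5 from lung brain metastases and 5 from non-tumor brain. Cells sorted as PDGFRb-tdTom+, a gate for mural cells (pericytes and smooth muscle), gave 4, 4 and 5. All mice carried PDGFRb-CreERT2 and Rosa-tdTomato, which mark cells with an active Pdgfrb promoter after tamoxifen, and the labels describe 2 mg of tamoxifen daily for 5 days without exempting any group. Metastases grew from cells injected into the heart, of the line PyMT-BrM3 for breast and Sv2T3-BrM1 for lung, so each tumor type is represented by a single line. Cells positive for CD45, CD11B or EPCAM had been gated out. Age is not given in the labels, and 2 lung labels each carry a pair of mouse numbers.

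Complement is a cascade of blood and tissue proteins that tags and lyses cells. In the classical pathway C1q binds a target and activates the proteases C1r and C1s, which cleave C4 and C2 into an enzyme that splits C3. In the alternative pathway fragments of C3 and factor B (Cfb) form a second such enzyme that amplifies the first. Host cells limit the cascade with C1 inhibitor (Serping1), which blocks C1r and C1s, with CD55, which takes apart the enzymes that split C3, and with CD59, which blocks the pore at the end of the cascade.

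Levels below are CPM, expected read counts scaled to a common library total that was adjusted per library by TMM factors of 0.849 to 1.25. Each run of values follows ascending mouse number. These are mice 51950, 52599, 52865, 53072 and 53142 for breast, with no PDGFRb library of mouse 53142. For lung they are 51435, 51697, 54957, 55169-70 and 56195-56520, with no PDGFRb library of mouse 51697. For non-tumor brain they are 53680, 54132, 54135, 56727 and 56740. Each library is a mouse or a pool, so the spread is between animals. A gene was called changed at an adjusted p under 0.05 in edgeR's quasi-likelihood test (Benjamini-Hochberg over all genes tested). Changes are log2 differences with their standard errors (SE). For edgeR the SE is an approximation, the absolute change divided by the square root of the test's F statistic.

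Library totals ran from 7105172 to 23934043 counts, and 3 counts corresponded to 0.125 to 0.422 CPM before the TMM factors. The CD31 library of mouse 56195-56520 held 12592 detected genes and the PDGFRb breast library of mouse 51950 held 9168, against 15075 to 22724 in the other libraries, and 5 and 3 of the complement genes were at 0 in them. In the PDGFRb sort of lung metastases Pdgfrb itself stood at 465 CPM in mouse 51435 and at 35.9 to 42.1 in the other 3 libraries, while the summed level of 10 pericyte and smooth muscle markers was 321 to 9800 CPM there against 16700 to 40600 in non-tumor brain. In bulk libraries such as these, fewer cells of a type and less RNA per cell cannot be told apart. Summed CPM of 10 epithelial markers was 0.175 to 9.64 in CD31 non-tumor, 157 to 3120 in CD31 breast and 98.2 to 2270 in CD31 lung libraries. In the PDGFRb sort the same sum was 5.24 to 80.1 in non-tumor, 1150 to 4400 in breast and 6200 to 10100 in lung libraries. None of the 10 was at 0 throughout any group. In 3 of the 4 PDGFRb lung libraries the markers thus go against the name mural cells, and all libraries of this sort are called PDGFRb libraries or cells by their gate. Both libraries of mouse 54135 carry a cell type label opposite to their title. They were grouped by title, and Pecam1 stood at 1360 CPM in the one titled CD31 and at 4.0 in the one titled PDGFRb. Pdgfrb stood at 0.227 and 854 CPM in the same order, so both genes go with the titles and not with the cell type labels.

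Per gene length (deposited FPKM values), the regulators led both sorts in non-tumor brain. Cd59a had the highest median FPKM of the 9 in CD31 cells, 160, and Serping1 in PDGFRb cells, 351. The order was different in the PDGFRb sort of lung metastases, where Cfb led at a median FPKM of 235, followed by C3 at 104. In CD31 cells of breast metastases Cfb led at 61.2, above Cd59a at 30.2. Cd59a still led in CD31 cells of lung metastases (39.1) and Serping1 in PDGFRb cells of breast metastases (446). Cd55 stayed between 0.53 and 3.52 in median FPKM in the 6 groups.

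**Figure D1:**
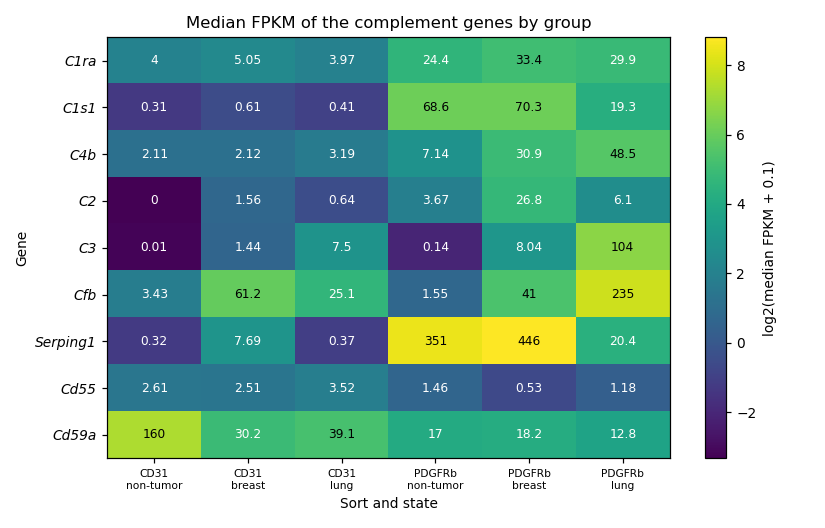
Median FPKM of each complement gene (rows) in each group of sort and state (columns), with the value printed in each cell and the color on a log2(median FPKM + 0.1) scale. Cd59a leads in CD31 non-tumor libraries (160), Serping1 in PDGFRb non-tumor libraries (351) and Cfb in PDGFRb lung libraries (235).

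The sorts differed in non-tumor brain in 6 of the 9 genes, 5 of them higher and 1 lower in PDGFRb cells. Over all genes tested, 27.9% were called, 17.4% higher and 10.5% lower. C1s1, the protease that cleaves C4 and C2, was at 1.29, 0.87, 0.34, 0.0583 and 1.79 CPM in CD31 libraries. In PDGFRb libraries it was at 225, 147, 97.8, 152 and 205 CPM, so the groups were far apart and the difference was 7.55 (SE 1.31, n = 5 each, edgeR adjusted p = 6.5e-05). C1s1 shares 14.7% of its 75-base windows with its copy C1s2 and lies opposite the antisense gene Gm16567, from which these unstranded libraries cannot separate it. Serping1 was at 1.99, 0.497, 0.227, 0.233 and 2.4 CPM in CD31 libraries. It stood at 539, 655, 221, 344 and 451 CPM in PDGFRb libraries, a difference of 8.67 (SE 1.29, edgeR adjusted p = 8.2e-06). Protease and inhibitor were thus both at a few CPM or less in CD31 cells and at 97.8 CPM or more in every PDGFRb library. Markers of other cell types differed between the sorts in the same libraries. All 9 fibroblast markers tested were higher in the PDGFRb sort (summed CPM 777 to 2060 against 3.57 to 7.97), as were 7 of 8 astrocyte markers (1600 to 4840 against 112 to 193) and 4 of 7 neuron markers (2.47 to 920 against 51.4 to 88.2). The fibroblast markers Lum, Slc22a6 and Efemp1 were at 0 in all CD31 non-tumor libraries. The part of these cell types in the differences was not tested.

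C2, which supplies the catalytic part of the classical enzyme, was at 0 in all 5 CD31 libraries of non-tumor brain. The PDGFRb libraries held 16.4, 15.2, 4.18, 6.44 and 6.71 CPM, at least 271-fold higher when the CD31 group is set to 3 counts over the group (edgeR adjusted p = 6.9e-05). C1ra, the protease that activates C1s, was at 9.81 to 15.2 CPM in CD31 and 23.5 to 73.9 CPM in PDGFRb libraries without overlap, a difference of 2.15 (SE 0.67, edgeR adjusted p = 0.015). With each mouse as a block that difference was 2.07 and no longer passed (edgeR adjusted p = 0.085). C1ra shares 40.1% of its windows with the copy C1rb, so its counts are uncertain. C3 was higher in PDGFRb cells by 4.27 (SE 1.54, edgeR adjusted p = 0.038). The PDGFRb library of mouse 56740 was at 14.7 CPM, and without it the difference was 2.54 (edgeR adjusted p = 0.25). The call was also lost without either library of mouse 53680 or the CD31 library of mouse 54135, 56727 or 56740 (edgeR adjusted p = 0.051 to 0.086), and with the mouse block (3.22, edgeR adjusted p = 0.3).

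Cd59a, the anchored inhibitor of the lytic pore, ran the other way. Its CD31 libraries were at 212, 196, 272, 237 and 237 CPM and its PDGFRb libraries at 20.8, 28.9, 5.93, 20.7 and 29.5 CPM. All PDGFRb values were below all CD31 values, with a difference of -3.44 (SE 0.63, edgeR adjusted p = 0.00012). C4b, Cfb and Cd55 did not pass between the sorts. If mouse 54135 is placed by its cell type label, which its Pecam1 and Pdgfrb levels go against, 0 of the 9 are called.

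**Figure D2:**
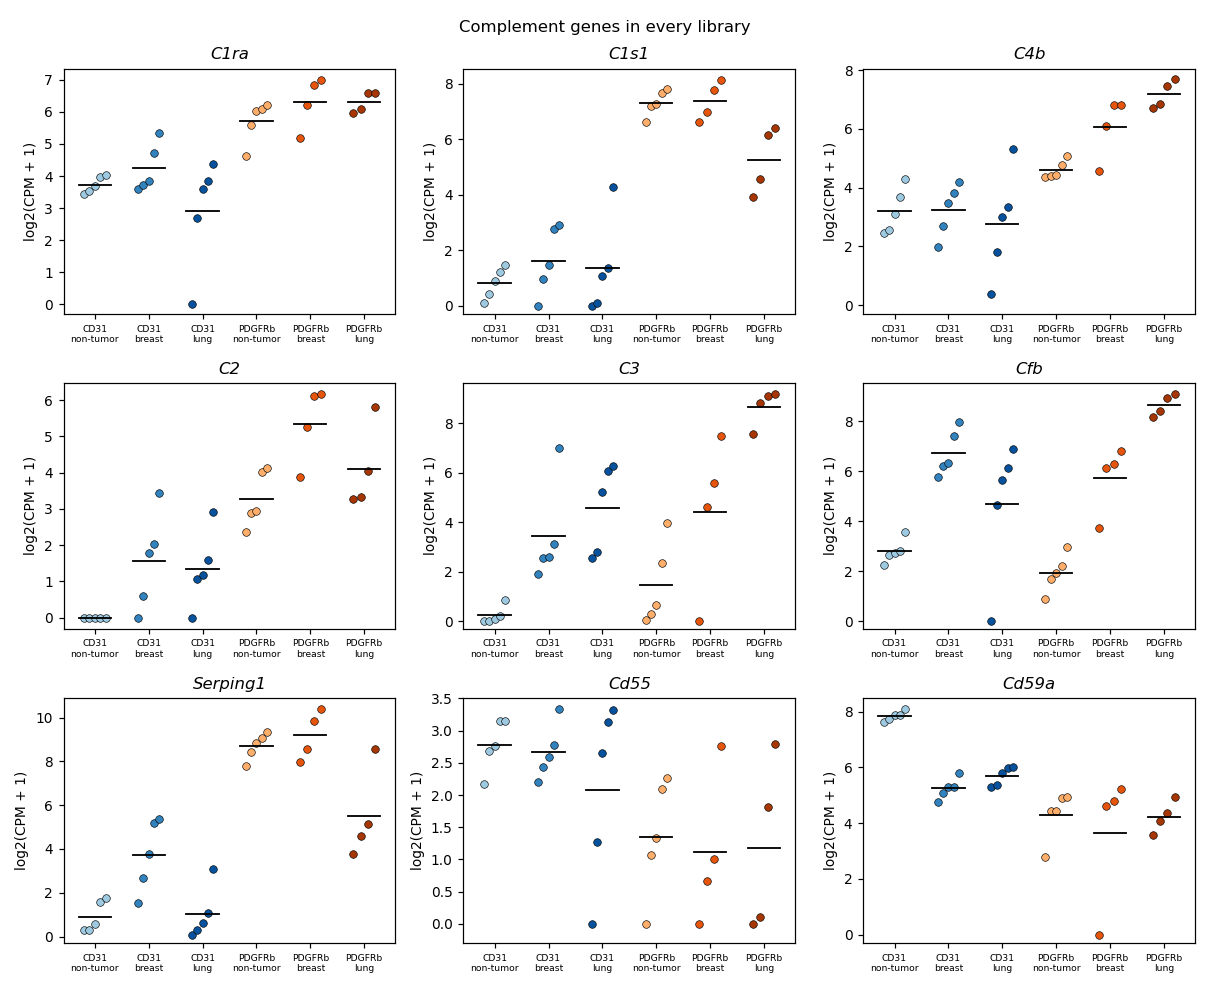
Level of each complement gene in every library, as log2(CPM + 1), by sort and state; each point is 1 library and the line is the group's mean of the log2 values. Cd59a is at 196 to 272 CPM in CD31 non-tumor libraries and at 26.1 to 63.0 CPM in the CD31 libraries of both metastases, and Cfb is at 287 to 539 CPM in PDGFRb lung libraries.

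In endothelial cells of breast metastases C3, Cfb, C2 and Serping1 rose and Cd59a fell relative to non-tumor brain. These are 4 of 9 higher and 1 of 9 lower, where 30.1% of all genes tested were called, 18.6% higher and 11.4% lower. In lung metastases C3, Cfb and C2 rose and Cd59a fell, 3 of 9 and 1 of 9, where 34.8% of all genes tested were called, 20.4% higher and 14.5% lower. The median change of the 9 genes was 1.82 in breast and 0.86 in lung metastases, beside 0.04 and 0.0 over all genes tested. Both comparisons share the same 5 non-tumor libraries.

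C3, the component both pathways converge on, was barely present in CD31 cells of non-tumor brain, at 0.0538, 0.808, 0.17, 0 and 0 CPM. Breast metastases held 4.94, 7.71, 2.75, 126 and 5.08 CPM, and lung metastases 76.6, 36.9, 6.01, 4.8 and 67.4 CPM. Every metastasis library was above every non-tumor library, by 7.24 in breast (SE 1.48, edgeR adjusted p = 0.0014) and 7.64 in lung (SE 1.5, edgeR adjusted p = 0.00094). The breast value leaned on mouse 53072, and without it the rise was 4.66 (edgeR adjusted p = 0.0032). On log2(FPKM + 1), which compresses low genes, the breast change was 1.69 and did not pass (limma adjusted p = 0.19).

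The promoter of C3 is shown because C3 rose in every library of CD31 metastases, with the match to TTGCNNAA in capitals. The sequence is from RefSeq, build GRCm38.p6, the 250 bases before the start at chr17:57228137-57228386, minus strand.
C3: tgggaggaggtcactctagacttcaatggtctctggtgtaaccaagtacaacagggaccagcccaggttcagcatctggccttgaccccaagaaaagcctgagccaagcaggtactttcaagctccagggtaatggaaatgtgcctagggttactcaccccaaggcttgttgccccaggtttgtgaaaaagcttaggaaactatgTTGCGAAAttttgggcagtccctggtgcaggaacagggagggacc
The match lies at bases -45 to -38, with -1 the base just before the start. TTGCNNAA is the pattern of C/EBP sites, and 9.56% of 32851 promoters of the same length held it on either strand.

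Cfb, the serine protease of the alternative pathway, was at 6.08, 5.59, 3.69, 5.19 and 10.7 CPM in CD31 cells of non-tumor brain. Breast metastases were all higher, at 72.8, 79.2, 54.2, 168 and 251 CPM, a rise of 4.36 (SE 0.93, edgeR adjusted p = 0.002). In lung metastases 4 libraries were also above the non-tumor range, at 119, 24.4, 69.4 and 49.0 CPM, while mouse 56195-56520 was at 0. The lung rise was 3.12 (SE 0.88, edgeR adjusted p = 0.012) with that library and 3.44 (edgeR adjusted p = 6.9e-05) without it. Neither call held under limma-voom, which gave 4.18 in breast (adjusted p = 0.07) and 1.13 in lung (adjusted p = 0.67). On the deposited log2 values the breast change was 4.19 (limma adjusted p = 0.075). With the date in the column names as a covariate, Cfb passed in neither tumor type (edgeR adjusted p = 0.089 in breast and 0.43 in lung). Within either sort, that fit compares metastases only with non-tumor libraries of a shared date. For lung these are mice 54957 and 56195-56520 against 56727 and 56740. Cfb shares 81.2% of its windows with Gm20547, a gene model that runs through Cfb and C2, so reads could be split between them.

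C2 appeared in CD31 cells of metastases only at low levels, 0.518, 2.41, 0, 3.09 and 9.86 CPM in breast and 6.52, 1.1, 1.99, 1.24 and 0 CPM in lung. Against 0 counts in all non-tumor libraries this is at least 97.1-fold higher in breast and 65.9-fold higher in lung (edgeR adjusted p = 0.0066 and 0.008). C2 was at 0 in 1 library of each tumor type, lost its call with the date as a covariate (edgeR adjusted p = 0.15 and 0.25), and shares 55.6% of its windows with Gm20547. It also overlaps Zbtb12 on the opposite strand, whose reads cannot be told apart from its own here.

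Serping1 was at 1.88, 12.7, 5.38, 35.5 and 40.0 CPM in CD31 cells of breast metastases, and 4 of the 5 libraries exceeded the non-tumor maximum of 2.4. The rise was 4.19 (SE 1.18, edgeR adjusted p = 0.013), and 4.51 but past the threshold no longer with the date as a covariate (edgeR adjusted p = 0.12). Lung metastases were at 0.549, 0.235, 1.14, 7.46 and 0.062 CPM and did not pass against non-tumor brain. The difference of lung minus breast, -3.33 (SE 1.14), did not pass either (edgeR adjusted p = 0.16), although DESeq2 called it (adjusted p = 0.018), as did edgeR without mouse 55169-70 (-5.22, adjusted p = 0.025). PDGFRb cells of breast metastases held Serping1 at 252 to 1340 CPM, and the part of such RNA in the CD31 libraries was not tested.

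Cd59a fell in CD31 cells of both tumor types. Breast metastases were at 38.3, 55.0, 32.9, 38.8 and 26.1 CPM and lung metastases at 62.7, 40.0, 54.1, 63.0 and 38.8 CPM, all below the non-tumor minimum of 196. The fall was -2.56 in breast (SE 0.2, edgeR adjusted p = 1.7e-07) and -2.1 in lung (SE 0.2, edgeR adjusted p = 1e-06), that is 5.91-fold and 4.29-fold. It held its call under each of the 14 other settings and each of the 15 single libraries left out, for breast and for lung. Within shared dates the order was the same: 38.3 and 38.8 against 212 CPM on 1 breast date, 26.1 to 55.0 against 272 on the other, and 38.8 to 54.1 against 237 on the lung date. The sum of 10 endothelial markers moved the same way, from 21800 to 22900 CPM in non-tumor brain to 6390 to 13800 in breast and 9340 to 13900 in lung metastases. Of the 10, 4 were called lower and 1 higher in each tumor type. Over all genes tested, 11.4% were lower and 18.6% higher in breast, and 14.5% and 20.4% in lung. The median change of the 10 was -0.37 in breast and -0.29 in lung. The part of this sum in the fall of Cd59a was not tested. Cd59a shares 1.73% of its windows with Cd59b.

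The promoter of Cd59a is shown as that of the gene that fell in these cells, with a match to the interferon response element pattern in capitals. The sequence is from RefSeq, build GRCm38.p6, the 250 bases before the start at chr2:104095551-104095800, plus strand.
Cd59a: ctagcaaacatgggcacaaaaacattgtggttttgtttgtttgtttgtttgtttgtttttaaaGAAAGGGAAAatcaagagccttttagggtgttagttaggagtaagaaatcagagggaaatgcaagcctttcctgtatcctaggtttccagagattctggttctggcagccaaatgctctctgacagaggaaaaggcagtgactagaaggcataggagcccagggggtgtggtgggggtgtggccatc
The match lies at bases -187 to -178. The pattern was found on either strand in 2.98% of the 32851 promoters. The patterns of STAT sites (TTCNNNGAA, 7.02% of promoters) and NF-kB sites (1.41%) had no match in either sequence. Among the 5 complement genes with a promoter in the table, C1s1 held a match to TTGCNNAA on the opposite strand in 1 of its 2 entries, and C1ra and Cd55 held none of the 4 patterns.

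C1ra, C1s1, C4b and Cd55 did not pass in CD31 cells of either tumor type. C1ra was at 9.81 to 15.2 CPM in non-tumor, 11.1 to 39.6 in breast and 0 to 19.8 in lung libraries, and C1s1 at 0.0583 to 1.79, 0 to 6.47 and 0 to 18.4 CPM. C4b, the substrate of C1s that anchors the classical enzyme, was at 4.42 to 18.4 CPM in non-tumor, 2.97 to 17.1 in breast and 0.31 to 38.8 in lung libraries. Cd55, the anchored regulator that takes apart the C3-splitting enzymes, was at 3.5 to 7.92, 3.6 to 9.15 and 0 to 8.94 CPM. The ranges of all 4 genes overlapped among the 3 states. Cd55 shares 9.39% of its windows with Cd55b and overlaps the antisense gene Gm16083, so its low counts are uncertain. Between lung and breast metastases 0 of the 9 passed in edgeR, where 2.13% of all genes tested did. An unadjusted p under 0.05 was reached by 2 of them, and DESeq2 called 1 (Serping1). The shares of all genes by these measures are not given here, so these counts have no background beside them. No date held libraries of both tumor types, so the date can be fitted only through the non-tumor libraries. With it as a covariate 0 of the 9 passed as well (Serping1 -5.61, edgeR adjusted p = 0.75).

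**Figure D3:**
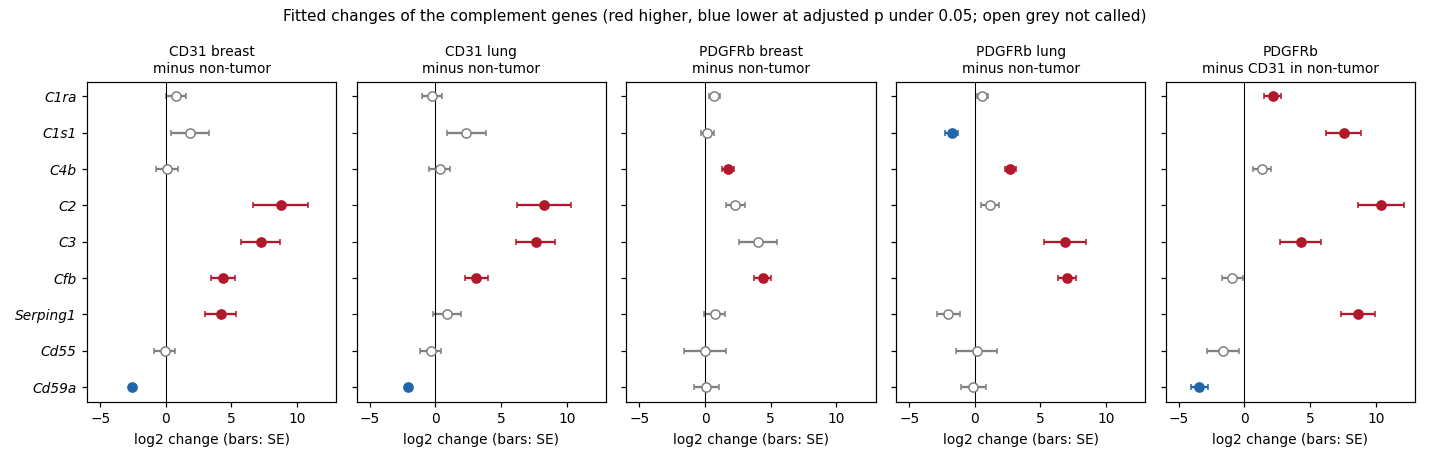
Fitted log2 change of each complement gene with its SE (bars) in the comparisons with non-tumor brain and between the sorts; filled points passed at an adjusted p under 0.05 and open points did not. C3 and Cfb lie right of 0 and filled in both CD31 comparisons and in PDGFRb lung, and Cd59a is filled and left of 0 in the CD31 comparisons and between the sorts; the C2 points of the CD31 and sort comparisons are set against a group at 0 and are not bounds.

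In the PDGFRb sort Cfb and C4b rose in both tumor types. Breast metastases had 2 of 9 higher and none lower, where 8.99% of all genes tested were called, 6.3% higher and 2.69% lower. Lung metastases had 3 of 9 higher and 1 of 9 lower, with C3 the further rise and C1s1 the fall, where 17.5% of all genes tested were called, 9.91% higher and 7.58% lower. The median change of the 9 genes was 0.73 in breast and 0.57 in lung metastases, beside -0.16 and -0.03 over all genes tested.

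Cfb was at 2.78, 3.6, 0.854, 6.92 and 2.18 CPM in PDGFRb cells of non-tumor brain, 111, 69.3, 12.2 and 77.3 CPM in breast and 287, 339, 486 and 539 CPM in lung metastases. The 3 states did not overlap. The rise was 4.39 in breast (SE 0.63, edgeR adjusted p = 0.0011) and 7.03 in lung (SE 0.7, edgeR adjusted p = 2.9e-05), and both kept their call under every setting and library left out. Without the 3 lung libraries of low Pdgfrb, which leaves mouse 51435 alone and assumes that it varies like the other groups, the lung rise was 6.42 (edgeR adjusted p = 0.0053). Lung exceeded breast by 2.64 (SE 0.63, edgeR adjusted p = 0.027). That difference did not pass without the 3 libraries (2.1, edgeR adjusted p = 0.98) or with the date as a covariate (1.32, edgeR adjusted p = 1.0), nor without mouse 52599, 53072, 54957, 55169-70 or 56195-56520 (edgeR adjusted p = 0.054 to 0.088). It also failed with all 6 groups in 1 fit. Between lung and breast 1 of 9 genes was called higher and 1 lower, where 5.47% of all genes tested were called, 3.08% higher and 2.39% lower.

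C3 was at 4.04, 0.206, 0.045, 0.573 and 14.7 CPM in PDGFRb cells of non-tumor brain and at 558, 192, 576 and 448 CPM in lung metastases. All lung libraries were above all others of the sort, a rise of 6.87 (SE 1.63, edgeR adjusted p = 0.011). The call was lost with the date as a covariate (5.47, edgeR adjusted p = 0.31), with no filter on low counts (6.8, edgeR adjusted p = 0.058) and without the 3 libraries (7.11, edgeR adjusted p = 0.16). Breast metastases were at 0, 46.8, 23.8 and 179 CPM. There the change of 4.04 (SE 1.45) did not pass (edgeR adjusted p = 0.097), but it did without mouse 51950, whose library is at 0 (4.43, edgeR adjusted p = 0.034).

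C4b was at 19.5, 20.3, 26.5, 20.0 and 32.5 CPM in PDGFRb cells of non-tumor brain, 22.7, 111, 110 and 67.3 CPM in breast and 114, 103, 176 and 205 CPM in lung metastases. Lung was above non-tumor throughout, by 2.71 (SE 0.44, edgeR adjusted p = 0.0011), a call lost with the date as a covariate (2.63, edgeR adjusted p = 0.1) and without the 3 libraries (2.23, edgeR adjusted p = 0.28). The breast rise of 1.75 (SE 0.43, edgeR adjusted p = 0.022) was near the threshold and was lost without mouse 52599, 52865, 53680, 54132 or 56727 (edgeR adjusted p = 0.057 to 0.071) and with the date as a covariate (edgeR adjusted p = 0.3). C4b shares 23.5% of its windows with C4a, so its counts are uncertain. Summed CPM of 6 oligodendrocyte markers was 4.88 to 104 in non-tumor, 37.3 to 380 in breast and 68.6 to 124 in lung libraries of this sort. Of the 6, 1 rose in breast and 0 in lung metastases, beside 6.3% and 9.91% of all genes tested. None of the 6 was at 0 throughout a group, and their part in the rise of C4b was not tested.

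C1s1 fell in PDGFRb cells of lung metastases, to 83.3, 14.3, 69.8 and 22.7 CPM from the 97.8 to 225 CPM of non-tumor brain, with no overlap. The change was -1.77 (SE 0.5, edgeR adjusted p = 0.026) and -1.02 without the 3 libraries of low Pdgfrb (edgeR adjusted p = 0.69). It was also lost without mouse 53680, 54957, 56195-56520 or 56740 (edgeR adjusted p = 0.057 to 0.081). Breast metastases, at 282, 221, 98.8 and 126 CPM, were in the non-tumor range or above it, and lung was lower than breast by -1.94 (SE 0.52, edgeR adjusted p = 0.044). This last call held in 2 of 13 fits that each left out a library and not without the 3 libraries (-1.12, edgeR adjusted p = 1.0).

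Serping1 in lung metastases divided with Pdgfrb and with fibroblast markers. Mouse 51435 was at 374 CPM, within the non-tumor range of 221 to 655, and the other 3 libraries were at 12.5, 22.8 and 33.9 CPM. Dcn, a fibroblast proteoglycan, stood at 486 CPM in that first library, while the remaining 3 held 29.3, 62.3 and 23.0 CPM. The 9 fibroblast markers summed to 167 to 1900 CPM (median 230) in lung and 777 to 2060 CPM in non-tumor libraries, and their part was not tested. The change of -2.01 (SE 0.85) did not pass (edgeR adjusted p = 0.13), whereas without mouse 51435 it was -4.29 (edgeR adjusted p = 0.00037) and without the other 3 it was -0.27 (edgeR adjusted p = 0.96). It also passed in DESeq2 (-2.12, adjusted p = 0.04) and on the deposited log2 values (-3.26, limma adjusted p = 0.013). With the date as a covariate it was -4.02 (edgeR adjusted p = 0.037). Mouse 51435 shares no date with a non-tumor library, so that value does not draw on it either. Breast metastases held 1340, 907, 252 and 380 CPM and did not pass.

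C2 in PDGFRb cells was at 70.5, 67.8, 13.6 and 37.1 CPM in breast metastases against 4.18 to 16.4 in non-tumor brain, a change of 2.3 (SE 0.71) that did not pass (edgeR adjusted p = 0.059) but did in DESeq2 (adjusted p = 0.0074). In lung metastases it was at 55.1, 8.65, 8.98 and 15.4 CPM and did not pass. C1ra (35.3 to 127 CPM in breast, 61.0 to 96.2 in lung), Cd55 (0 to 5.77 and 0 to 5.94) and Cd59a (0 to 36.4 and 10.8 to 29.4) did not pass in the PDGFRb sort of either tumor type.

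Whether the metastasis effect differed between the sorts was tested as an interaction over all 28 libraries. For lung metastases 2 of the 9 passed, where 10.1% of all genes tested did. Cfb changed more in PDGFRb than in CD31 cells, by 3.91 (SE 1.15, edgeR adjusted p = 0.028), and C2 changed less, a difference set by the CD31 non-tumor group at 0 (edgeR adjusted p = 0.028). Neither passed with each mouse as a block (Cfb 4.5, edgeR adjusted p = 0.16, and C2 adjusted p = 0.14), with the date as a covariate (0.052 and 0.06) or without the 3 libraries (0.49 and 0.51). The Cfb call was also lost without mouse 54135 (3.77, edgeR adjusted p = 0.06), and both calls were lost under limma-voom. Cfb failed too with no filter on low counts. It failed without the PDGFRb library of mouse 54135, 55169-70 or 56195-56520, the CD31 library of mouse 51697 or either library of mouse 56740 (edgeR adjusted p = 0.05 to 0.068). C2 failed without the CD31 library of mouse 51435 or the PDGFRb library of mouse 55169-70 (edgeR adjusted p = 0.054).

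For breast metastases 0 of the 9 passed in edgeR (5.93% of all genes tested did). An unadjusted p under 0.05 was reached by 3, and DESeq2 called 2, again without the shares of all genes by these measures. Cd59a came near, at 2.64 (SE 0.84, edgeR adjusted p = 0.06), and passed without the PDGFRb library of mouse 51950, which is at 0 for Cd59a (3.04, edgeR adjusted p = 6.6e-05). Without the CD31 library of that mouse it was 2.64 (edgeR adjusted p = 0.089).

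Krt8, an epithelial keratin that sorted vascular cells should lack, moved with several of these changes. It was at 0 to 1.12 CPM in CD31 non-tumor, 34.6 to 856 in CD31 breast and 37.9 to 824 in CD31 lung libraries. PDGFRb libraries held 0.882 to 8.58 CPM in non-tumor, 417 to 1200 in breast and 2490 to 4030 in lung. Epcam, another of the 10 epithelial markers, ran the other way between the tumor types. PDGFRb libraries held it at 92.6, 73.5, 202 and 271 CPM in breast and 5.94, 7.6, 31.9 and 16.8 CPM in lung. Of the 10, 2 were called higher and 2 lower in PDGFRb lung minus breast, beside 3.08% and 2.39% of all genes tested. Cfb per Krt8 was 0.197 to 4.01 in CD31 breast and 0 to 1.29 in CD31 lung libraries. In the PDGFRb sort this ratio was 0.0229 to 0.266 in breast and 0.104 to 0.18 in lung libraries. C3 per Krt8 was 0.0149 to 0.223 in CD31 breast and 0.034 to 0.709 in CD31 lung libraries. PDGFRb libraries had 0 to 0.149 for C3 in breast and 0.0587 to 0.224 in lung. The CD31 breast library with the highest C3, mouse 53072, also had the highest Krt8 of its group (856 CPM). Cfb, C2 and Serping1 were highest in mouse 53142, where Krt8 was at 62.5 CPM, above only mouse 52599 in the group. In CD31 lung libraries mouse 51435 had the highest Krt8 (824 CPM), C3, Cfb and C2, but not Serping1. In PDGFRb breast libraries mouse 53072 was highest in Krt8 and C3 (1200 and 179 CPM). Cfb and C2 were highest there in mouse 51950, where Krt8 was lowest (417 CPM). In PDGFRb lung libraries mouse 56195-56520 was highest in Krt8 (4030 CPM), Cfb and C4b, mouse 55169-70 in C3 and mouse 51435 in C2. The part of epithelial RNA in the rises of C3, Cfb, C2, C4b and Serping1 was not tested. Cd59a fell in the same CD31 libraries in which Krt8 was high.

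**Figure D4:**
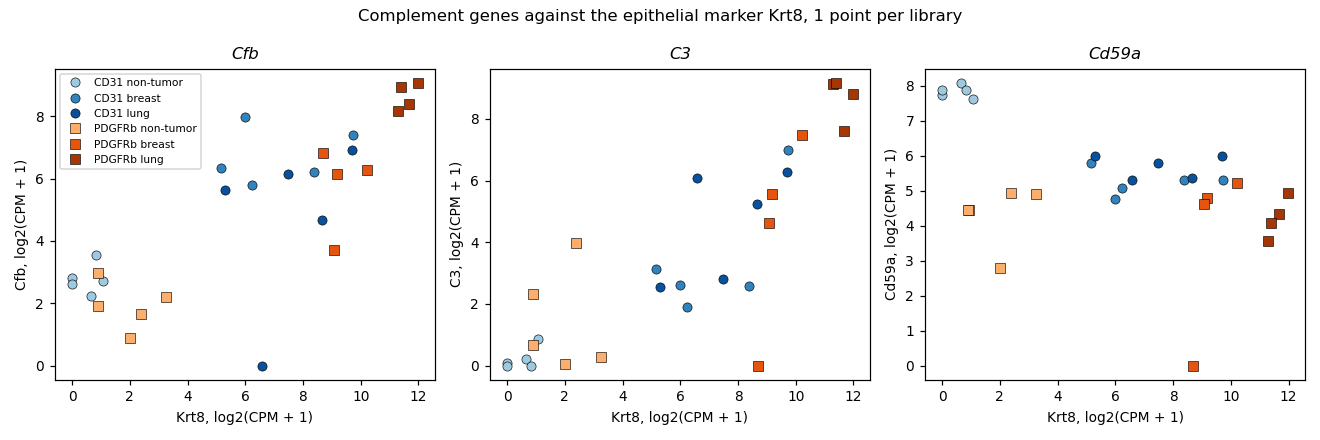
Cfb, C3 and Cd59a against the epithelial keratin Krt8, both as log2(CPM + 1), with 1 point per library, circles for CD31 and squares for PDGFRb, and darker shades for metastases. PDGFRb lung libraries have the highest Krt8 (2490 to 4030 CPM) and the highest Cfb (287 to 539 CPM), and Cd59a in CD31 libraries is lower in metastases than in non-tumor brain.

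Other genes of the system were read from lists of recognition molecules and proteases, terminal components, receptors and further regulators. In CD31 cells 3 of 6 tested recognition genes rose in breast and 4 of 6 in lung metastases, beside 18.6% and 20.4% of all genes tested. They include the subunits of C1q, which starts the classical pathway, with C1qb up by 4.57 and 5.61 (SE 1.39 and 1.45, edgeR adjusted p = 0.02 and 0.0068). C1q is made mainly by microglia and macrophages, and 12 myeloid markers summed to 3.52 to 15.1 CPM in CD31 non-tumor, 3.82 to 117 in breast and 21.6 to 657 in lung libraries, with Aif1 at 0 in non-tumor libraries. That marker list includes the C1q subunits themselves and the receptor Itgam, so its sum is not independent of them. Ptprc, another marker of the list, was at 0.0511 to 0.874 CPM in CD31 non-tumor, 0.229 to 3.21 in breast and 0 to 3.15 in lung libraries. The part of myeloid RNA was not tested. In the PDGFRb sort 3 of 8 recognition genes rose and 1 fell in breast metastases (6.3% and 2.69% of all genes tested), the rises again being subunits of C1q. In lung metastases 0 rose and 1 fell (9.91% and 7.58%). Of 5 receptors tested in CD31 cells 3 rose in each tumor type, among them Cd93, an endothelial C-type lectin once taken for a C1q receptor, from 571 to 703 CPM to 1290 to 2920 in breast and 1620 to 2370 in lung.

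Among 9 further regulators tested in CD31 cells, 1 rose and 2 fell in breast metastases, near the 18.6% and 11.4% of all genes tested. In lung metastases 2 rose and 5 fell, beside 20.4% and 14.5%, and the median change of the list was -1.28. In breast metastases Cfi rose by 3.8 (SE 1.22, edgeR adjusted p = 0.026), and thrombomodulin (Thbd) changed by -1.12 (SE 0.23, edgeR adjusted p = 0.0013). In lung metastases Cfi, the protease that inactivates C3b, and clusterin (Clu), a fluid-phase inhibitor of the lytic pore, rose by 6.25 and 2.95 (SE 1.34 and 0.42, edgeR adjusted p = 0.0018 and 5.2e-05). Vitronectin (Vtn), which binds the forming lytic complex, changed there by -2.92 (SE 1.09, edgeR adjusted p = 0.048). Vtn is also among the 10 pericyte and smooth muscle markers. Their sum was 19.6 to 109 CPM in CD31 non-tumor and 29.9 to 245 in CD31 lung libraries, and their part was not tested. In the PDGFRb sort 0 of 12 regulators rose and 1 fell in breast metastases, beside 6.3% and 2.69% of all genes tested. Of the same 12, 4 rose and 2 fell in lung metastases of this sort, beside 9.91% and 7.58%. Clu stood at 13000 to 15400 CPM there against 141 to 1610 in non-tumor and 178 to 442 in breast libraries. Cfi was at 287 to 531 CPM against 0 to 1.63 and 0 to 0.57. The lung group also held the highest summed epithelial markers, whose part in these levels was not tested.

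By the shape of their 6 group means, the genes most like each complement gene were taken from 9348 expressed genes as those with the smallest root mean square difference in centred log2 CPM. C1s1 was closest to Angptl2, Arhgef17 and Cryab, with differences of 0.27, 0.27 and 0.31. Cd59a was closest to Lyrm1, Ifnar1 and Tbc1d14 (0.3, 0.32 and 0.36). The nearest to C3 were Krt7, S100a6 and Lbp (0.58, 0.6 and 0.72), and to Cfb Prr15l, Me1 and Muc1 (0.6, 0.75 and 0.77), among which Krt7 and Muc1 are epithelial genes. Serping1 was nearest to Crispld2, Sdc2 and Ednra (0.58, 0.62 and 0.64). C4b was nearest to Mbp, a myelin gene of oligodendrocytes, Fam213a and Plekhf1 (0.46, 0.5 and 0.6). C2 was nearest to Ddr1, Tom1l1 and Fam20a (0.49, 0.59 and 0.62) and C1ra to Got1, Extl2 and Slc9a3r1 (0.32, 0.35 and 0.38). The nearest to Cd55 were Parp9, Mid1 and Scyl2 (0.13, 0.13 and 0.15).

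By annotation of the build GRCm38, Cfb (chr17:34856374-34862518) and C2 (chr17:34862604-34898265) are neighbours on the minus strand, and C4b (chr17:34728380-34743882) lies in the same region, the class III part of the major histocompatibility complex. C1ra (chr6:124512405-124523443, plus strand) and C1s1 (chr6:124530345-124542359, minus strand) are also neighbours. The neighbours Cfb and C2 differed in CD31 cells of non-tumor brain, where Cfb was at 3.69 to 10.7 CPM and C2 at 0.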

How the data were processed

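RNA of sorted CD31+ and PDGFRb-tdTom+ cells was amplified by SMART-Seq HT and prepared with Nextera XT, per the labels' protocols. These keep no strand and carry no molecular identifiers, so bounds from counts cover counting error only. The deposited expected counts are the authors' estimated reads per gene with no scaling. Alignment to mm10 and the tools limma 3.50.3, edgeR 3.36.0, RSEM 1.3.3 and STAR 2.7.9a are listed in the submitters' processing notes. The deposited log2 values hold normalized expression and the deposited FPKM values are scaled by gene length and depth, both made by the authors; they cover 18665 genes. The annotation release is not given in the sources used here, and member positions come from the GENCODE gene of the same ID.

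Counts were rounded, filtered with filterByExpr, scaled by TMM and fitted with edgeR 4.0.16 (R 4.3.3), by the robust quasi-likelihood test with Benjamini-Hochberg adjustment. Each sort was fitted alone on its 3 groups; comparisons across sorts used all 6 groups. limma 3.58.1 and DESeq2 1.42.0 served as alternatives. On simulated counts for CD31 breast against non-tumor (14448 genes), 50% of genes changed 4-fold and 85.7% of those changed 16-fold were called. For PDGFRb breast (16310 genes) the rates were 12% and 51%. The simulations changed only 49 or 50 genes per size, drawn above a floor of mean expression. The data had 4473 and 1531 genes called in these comparisons, so the rates need not carry over. Of 53647 gene IDs 52093 had a symbol, and rows without one held 0.182% to 1.57% of counts. C5 had no match by symbol.

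The members and lists were chosen with earlier results of these data known. All members are named. From each other list, up to 4 genes that passed and had a mean of 1 or more on the log2 CPM scale could be named, by size of change, and some of these are given; 1 gene is not reported here. Motifs were searched in the 250 bases before each start, a shorter window than the 300 bases of the table. Of the 81 member changes, 37 with an unadjusted p under 0.05 were followed across alternatives, a limit set after the alternatives had been seen. Of 15 mice or pools, 13 gave both sorts, so the mouse number pairs libraries of the same animal. Deviations of the 13 pairs from their group means correlated at -0.12 to 0.33 (median 0.0057).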

Additional observations from a re-analysis of the deposited data

Results flagged for a closer look

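Of 54 groups of a gene's values, 4 had a library far from the others in its group by Dixon's ratio at the 95% level; chance flags about 1 in 20. C3 in CD31 breast metastases was at 126 CPM in mouse 53072, and the next highest library was at 7.71. C3 in CD31 non-tumor brain was at 0.808 CPM in mouse 54132, with the others at 0 to 0.17. Cd59a in PDGFRb breast metastases was at 0 CPM in mouse 51950, with the others at 23.5 to 36.4, and that library also had the fewest detected genes (9168). Cd59a in PDGFRb non-tumor brain was at 5.93 CPM in mouse 54135, with the others at 20.7 to 29.5.

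Effects that differed between groups by a test of the difference were 4. In PDGFRb cells lung exceeded breast metastases in Cfb by 2.64 (edgeR adjusted p = 0.027), and C1s1 differed by -1.94 (edgeR adjusted p = 0.044). The lung effect differed between PDGFRb and CD31 cells in C2, by -7.08 (edgeR adjusted p = 0.028, a fitted value against a group at 0 and no bound), and in Cfb, by 3.91 (edgeR adjusted p = 0.028).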

How the results depend on the processing

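Calls that held under every alternative and every library left out were Cd59a in CD31 breast and lung, C3 in CD31 lung and Cfb in PDGFRb breast and lung metastases, each against non-tumor brain. Placing mouse 54135 by its cell type label reversed Serping1 in CD31 breast (-1.32), C2 and Serping1 in the breast effect between sorts (0.5 and 2.1) and C1s1 and Cd59a in the lung effect (0.65 and -0.2). The count of genes called in CD31 breast, 5, was 3 with that label, 2 with the date as a covariate and 3 and 3 on log2(FPKM + 1) without and with the filter at a mean of 1. In CD31 lung, 4 became 2 with the date and 2, 2 and 2 on FPKM (pseudocounts 1 and 0.1, and the filter). It became 3 with limma-voom, without a filter, with the label and on the deposited log2 values. In CD31 lung minus breast, 0 became 1 with DESeq2. In PDGFRb breast, 2 became 4 with DESeq2 and 1 with the label, with the date and on the deposited log2 values. The 4 of PDGFRb lung became 3 without a filter, with the label, with the date and with all 6 groups in 1 fit. They became 5 with DESeq2 and on the deposited log2 values. In PDGFRb lung, 4 became 1 without the 3 libraries of low Pdgfrb. In PDGFRb lung minus breast, 2 became 1 with limma-voom, with the filter at 1 CPM, with the label and without mouse 54135, 0 with the date, without the 3 libraries and with all 6 groups in 1 fit, and 4 and 4 on log2(FPKM + 1). Between the sorts, 6 became 0 with the label. In the breast effect between sorts, 0 became 1 with upper-quartile scaling and 2 with DESeq2. In the lung effect, 2 became 1 with limma-voom, without a filter and without mouse 54135, and 0 with the label, with the date, without the 3 libraries and with the mouse as a replicate block. Smaller moves of these counts are not all listed, and the causes were not tested. The share of all genes called under each alternative is not given here.

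With the replicate block, which pairs the sorts by mouse, 4 genes were called between the sorts and 0 in either effect. C1ra and C3 lost their calls between the sorts (2.07 and 3.22), as did C2 and Cfb in the lung effect; the block changed no other call. Leaving out 1 library at a time gave 5 to 5 genes in CD31 breast, 4 to 4 in CD31 lung, 0 to 1 in CD31 lung minus breast, 1 to 3 in PDGFRb breast, 3 to 5 in PDGFRb lung, 0 to 3 in PDGFRb lung minus breast, 5 to 6 between the sorts, and 0 to 1 and 0 to 3 in the breast and lung effects.

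Of the 44 member changes that were not followed, all uncalled, 28 changed sign at least once, 87 times under other alternatives and 75 times with a library left out. In 3 of their refits a change passed the threshold: C3 in PDGFRb lung minus breast on log2(FPKM + 1), 3.54 without and with the filter, and Serping1 in the lung effect without the PDGFRb library of mouse 51435 (-5.08). A library's 3 counts, 0.144 to 0.176 CPM before the TMM factors in CD31 non-tumor libraries, limit C2 and C3 in these libraries.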
